A study of Mus musculus with 27 samples.

Results

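Fatty acid oxidation and ketone body genes are described here across the lobule of the mouse liver in non-pregnant (NP) mice and in mice at day 8 (dpc8) and day 16 (dpc16) post coitum. The module holds 32 genes, listed by symbol, of the 21823 genes in the expression table, and all 32 were found once each and reached 1 FPKM in 3 or more libraries. FPKM are fragments per kilobase of transcript, scaled to the mapped fragments of the library, so levels can be compared between genes. The animals are labelled C57BL/6 (C57BL/6N in the study's methods), wild type and female, and the labels give no treatment. Zones 1, 2 and 3 of the lobule were cut from frozen liver sections by laser microdissection, and each of the 9 groups of stage and zone has 3 RNA sequencing libraries. Each library comes from about 2 mm2 of tissue in which hepatocytes lie next to endothelium, Kupffer cells and vessel walls, and in such bulk samples fewer cells of a type and less RNA per cell cannot be told apart. The labels do not say which libraries came from the same mouse, so p-values measure only the spread between these libraries.

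The liver burns fatty acids in mitochondria and peroxisomes. A fatty acid is taken up, bound and activated to its coenzyme A (CoA) ester, passes into mitochondria as a carnitine ester, and is shortened by repeated rounds of dehydrogenation, hydration, dehydrogenation and thiolysis. The acetyl-CoA released feeds the tricarboxylic acid cycle or, in the fasted liver, is made into ketone bodies for other organs, and the nuclear receptor PPARA drives many of these genes. Textbook accounts place fatty acid oxidation mainly in the periportal lobule and fat synthesis mainly in the pericentral lobule.

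The libraries hold an estimated 7.55 M to 33.20 M mapped reads, worked out from the spacing of low FPKM values, and 1 read on 1 kilobase of transcript was worth 0.030 to 0.132 FPKM. All members but Acot1 stayed above 10 FPKM in every library, far above that step. The zones carried their markers: 8 pericentral genes summed to 243 to 465 FPKM in zone 1, 964 to 5649 in zone 2 and 6824 to 18291 in zone 3, and 8 periportal genes to 2629 to 6003, 594 to 3526 and 134 to 1635. The 6 hepatocyte markers summed to at least 32544 FPKM in each library, and adipocyte markers were at or near 0, with a summed level of at most 0.297 FPKM. In 6 libraries (replicate 1 of zone 1 and replicate 2 of zone 3 in NP, replicate 1 of zone 1 and replicate 2 of zone 2 at dpc8, and replicate 3 of zones 2 and 3 at dpc16) the 4 Y-linked genes summed to 7.92 to 23.2 FPKM against at most 2.97 in the other 21, which goes against the sex label. The 11 connective tissue and smooth muscle genes summed to 989 to 4629 FPKM in those 6 libraries and 84.7 to 596 in the others.

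These 6 libraries were also the lowest of their group in the mean log2(FPKM + 1) of the 32 members, in 6 of 6 cases. By share of FPKM this held for 5 of them, and NP zone 1 replicate 1 had the highest share of its group, 1.33% against 1.21 and 1.25%. Of the members, 30 were lowest of their group in at least 4 of the 6. The members took 0.695 to 1.46% of all FPKM in the 6 libraries and 1.04 to 2.62% in the other 21. At dpc16 replicate 3 of zone 1, which is not among the 6, was low as well, with 1.04% against 2.62 and 2.25%. Its Y-linked genes summed to 2.97 FPKM, the highest of the other 21. All 3 low dpc16 libraries carry replicate number 3, and libraries of 1 number deviated together at this stage. The part of the Y-linked and connective tissue signal in the members' levels was not tested. Results are therefore given with all 27 libraries and, where the count changes, with the other 21.

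**Figure D1:**
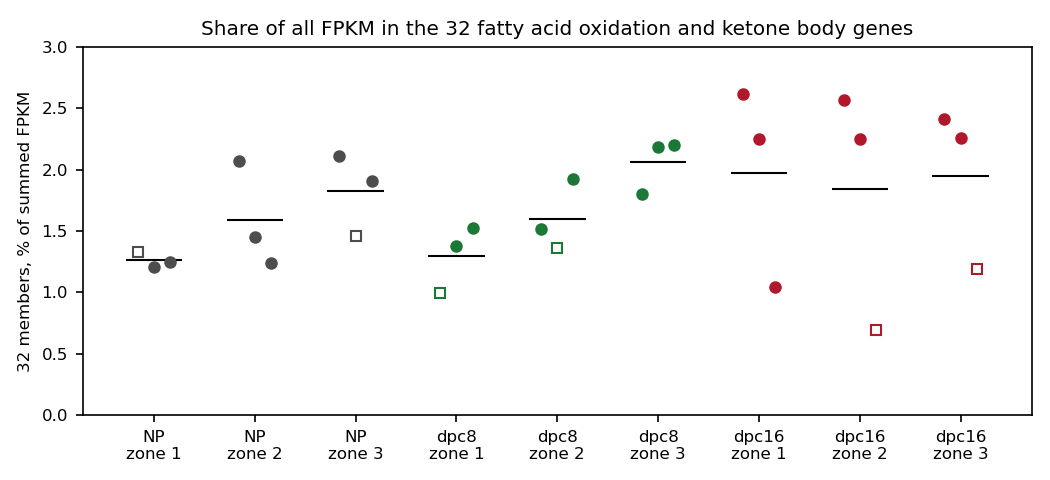
Share of the summed FPKM of each library (vertical axis, %) taken by the 32 members, for the 9 groups of stage and zone. Filled circles are libraries, open squares the 6 libraries with Y-linked signal, and lines the group means. In dpc16 the first and second libraries of every zone lie between 2.25 and 2.62%, and the third lies between 0.695 and 1.19%.

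Sequences upstream of 4 members are shown because PPARA, itself a member, binds paired AGGTCA elements spaced by 1 base. Promoter windows of 250 bases before to 50 bases after the start were taken from RefSeq (GRCm38.p6), which has windows for 26 of the 32 members. Fabp1 and Acot1, the most abundant member and the member with the widest difference between zones, are printed up to the start of the gene in GENCODE. Acadvl and Acadm are printed around a lone AGGTCA. Capitals mark matches on either strand.
Fabp1, chr6:71199629-71199826, plus strand: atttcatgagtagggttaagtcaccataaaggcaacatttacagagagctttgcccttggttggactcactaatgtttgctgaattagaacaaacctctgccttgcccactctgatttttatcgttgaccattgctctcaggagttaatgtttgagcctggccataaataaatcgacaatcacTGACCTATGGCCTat
Acot1, chr12:84009290-84009489, plus strand: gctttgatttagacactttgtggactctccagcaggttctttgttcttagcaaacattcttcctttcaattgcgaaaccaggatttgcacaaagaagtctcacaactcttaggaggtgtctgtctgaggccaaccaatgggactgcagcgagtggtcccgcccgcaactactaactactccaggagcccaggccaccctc
Acadvl, chr11:70015490-70015535, minus strand: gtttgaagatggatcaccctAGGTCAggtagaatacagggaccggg
Acadm, chr3:153944867-153944893, minus strand: gTGACCTtcgggctccggtgacactgg

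The repeat AGGTCANAGGTCA was in no member's window and in 0.0481% of all 27025 genes' windows. The looser form AGGNCANAGGNCA was in Fabp1 alone among the members and in 0.451% of all genes. Its match in Fabp1 reads AGGCCATAGGTCA on the minus strand, from 67 to 55 bases before the RefSeq start. The lone element AGGTCA was in 5 members (Acadm, Acadvl, Cpt1a, Fabp1 and Slc27a2) and in 18.1% of all genes, and 1 of the 2 elements of Fabp1 lies inside the repeat. A match is only a run of letters in this window, and no match says nothing about the receptor.

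Fabp1, the fatty acid binding protein of the liver cytosol, was the most abundant member in each library, with 1473 to 14753 FPKM. It made up 24.1 to 57.0% of the members' summed FPKM, with a median of 40.4%. Next by the median over the 27 libraries came Slc27a2, a very long chain acyl-CoA synthetase and transporter (863 FPKM), Acaa2, the mitochondrial thiolase (725 FPKM), and Acsl1, the main long chain acyl-CoA synthetase (499 FPKM). The lowest medians were those of Crat, the carnitine acetyltransferase (47.4 FPKM), Vnn1, a pantetheinase and known PPARA target (52.6 FPKM), and Slc25a20, the carnitine and acylcarnitine carrier (58.0 FPKM). Ppara had a median of 76.8 FPKM and ranged from 38.8 to 136.

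The zones were compared to ask which members are zonated. Averaged over the 3 stages, Acot1 and Bdh1 were lower in zone 1 than in zone 3 and none was higher, 2 of 32 members, where 2.89% of all 12952 genes tested were called lower and 2.70% higher. Acot1, a cytosolic acyl-CoA thioesterase, differed by a log2 fold change of -2.66 ± 0.63 (SE, adjusted p = 0.0108, limma with Benjamini-Hochberg adjustment over all genes tested). Bdh1, the mitochondrial D-beta-hydroxybutyrate dehydrogenase that makes the ketone body hydroxybutyrate, differed by -0.95 ± 0.25 (adjusted p = 0.0270). The fitted value was below 0 for 31 of the 32 members and slightly above it for Etfb (0.02), and the median over the members was -0.36, beside 0.04 over all genes. With the connective tissue level as a covariate the same 2 members were called, against 3.71% of all genes lower. The median over the members was then -0.18, and 5 fitted values were above 0 (Acaa2, Cpt1a, Etfa, Etfb and Slc27a2, at most 0.18).

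In NP mice, Acot1 had 21.2, 22.6 and 0.993 FPKM in zone 1, 154, 64.3 and 52.4 in zone 2, and 213, 84.3 and 49.8 in zone 3. At dpc8 the values were 44.9, 30.5 and 12.4 in zone 1, 135, 58.8 and 38.3 in zone 2, and 239, 193 and 113 in zone 3. At dpc16 they were 212, 102 and 13.2 in zone 1, 319, 153 and 15.7 in zone 2, and 571, 379 and 95.5 in zone 3. Each zone 1 library was below each zone 3 library in NP and dpc8 mice, and the ranges overlapped at dpc16, where the third library was the lowest in every zone and zone 1 was below zone 3 within each of the 3 replicate numbers. Acot1 is 93.79% identical to Acot2 over 1337 aligned transcript positions. Only uniquely mapped reads were kept, so reads that match both genes may be missing from its level. The difference kept its call under all 30 alternatives, from -3.26 to -2.27.

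Bdh1 had 78.1, 81.9 and 92.5 FPKM in zone 1, 205, 99.4 and 109 in zone 2, and 243, 121 and 177 in zone 3 of NP mice. The dpc8 libraries had 51.2, 109 and 126 in zone 1, 121, 99.0 and 173 in zone 2, and 203, 239 and 196 in zone 3. The dpc16 libraries had 164, 131 and 86.9 in zone 1, 178, 173 and 50.6 in zone 2, and 244, 229.8 and 110.3 in zone 3. Zones 1 and 3 did not overlap in NP and dpc8 mice and did overlap at dpc16, through the low replicate 3 of zone 3, while within each of the 3 dpc16 replicate numbers zone 1 was below zone 3. Bdh1 lost its call when any of 6 libraries was left out (replicate 1 of zone 3 in NP, replicate 1 of zone 1 or 2 of zone 3 at dpc8, replicate 3 of zone 1 or replicates 1 or 2 of zone 3 at dpc16), with adjusted p between 0.0557 and 0.0667.

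Within each stage no member was called between zones 1 and 3, where 1.34% of all genes were called in NP, 1.61% at dpc8 and 1.55% at dpc16. At an unadjusted p under 0.05 there were 4 members in NP, 4 at dpc8 and 0 at dpc16, beside 8.02, 12.2 and 7.86% of all genes. The fixed replicate block compares zones 1 and 3 of the same number. With it Acot1 and Eci2 were called lower in NP (1.36% of all genes). At dpc8 it called 8 members lower (Acaa1a, Acaa1b, Acat1, Acot1, Bdh1, Crat, Ehhadh and Vnn1, against 2% of all genes). At dpc16 it called Acot1 (-2.02, limma adjusted p = 0.0180, against 1.17% of all genes). The number was taken to pair libraries only at dpc16, so the NP and dpc8 calls rest on a pairing not shown there. Deviations of zones 1 and 3 of 1 number correlated at 0.01, -0.06 and 0.60 in NP. At dpc8 these correlations were 0.06, 0.01 and 0.29. The fitted values lay below 0 for 30 of 32 members in NP (median -0.42), for all 32 at dpc8 (median -0.71) and for 9 at dpc16 (median 0.15). The 3 zone 1 libraries all lay below the 3 zone 3 libraries for 8 members in NP (Acaa1b, Eci2, Eci1, Hadha, Acat1, Bdh1, Acadm and Acot1), where this held for 6.05% of all genes. It held for 21 members at dpc8 against 10.5% of all genes, and for 0 at dpc16 against 6.39%. In NP zone 1 and dpc8 zone 1 the first library, and in NP zone 3 the second, are among the 6 with Y-linked signal. At dpc16 replicate 3 of zone 3 is among them.

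Without the 6 libraries, 7 members were called lower in zone 1 over the 3 stages and none higher, against 3.93% of all genes lower. They were Acot1 (-3.26), Eci2 (-1.08), Acaa1b (-1.04), Acaa1a (-1.02), Bdh1 (-1.01), Ppara (-0.73) and Hadh (-0.38), and all 32 fitted values were below 0. With the covariate and all 27 libraries, Eci2 (-0.69), Acaa1a (-0.67), Acaa1b (-0.74), Ppara (-0.46) and Hadh (-0.24) were not called, with adjusted p of 0.110, 0.134, 0.148, 0.219 and 0.318. At dpc16 the median over the members moved from 0.15 with 27 libraries to -0.39 with 21, a fit that loses replicate 3 of zone 3 and keeps the low replicate 3 of zone 1, so the zones there are not matched. Within the dpc16 replicate numbers 1, 2 and 3 the median difference of zone 1 from zone 3 was 0.12, -0.11 and 0.37, with 19, 12 and 24 of 32 members higher in zone 1. The 7 calls above come from the same unmatched fit. With the fixed replicate block 10 members were called lower, against 4.08% of all genes. Acaa1a and Acaa1b, 2 of these, were not called with the number as a random block (limma, adjusted p = 0.0599 and 0.0513).

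By role, the medians were lowest for Acat1 and Bdh1, the ketone body genes (-0.74), and for the peroxisomal genes, and the electron transfer genes lay near 0. The genes of uptake and activation had a median of -0.41 and ran from -2.66 (Acot1) to -0.11 (Slc27a2). The 6 peroxisomal members, Acaa1a and Acaa1b (thiolases), Ehhadh and Hsd17b4 (bifunctional enzymes), Eci2 (an isomerase) and Decr2 (a dienoyl-CoA reductase), had log2 differences between zones 1 and 3 of -0.87 to -0.36, with a median of -0.66. Acaa1a and Acaa1b are 96.00% identical over 1450 aligned transcript positions, and reads that match both may be missing from their levels. The 6 genes of the later mitochondrial steps (Hadh, Hadha, Hadhb, Acaa2, Eci1 and Decr1) lay between -0.45 and -0.11, and the 5 acyl-CoA dehydrogenases (Acads, Acadm, Acadl, Acadvl and Acadsb) between -0.46 and -0.16. The carnitine shuttle genes lay between -0.80 (Crat) and -0.05 (Cpt1a, the entry enzyme), and Etfa, Etfb and Etfdh, which pass electrons to the respiratory chain, between -0.27 and 0.02.

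**Figure D2:**
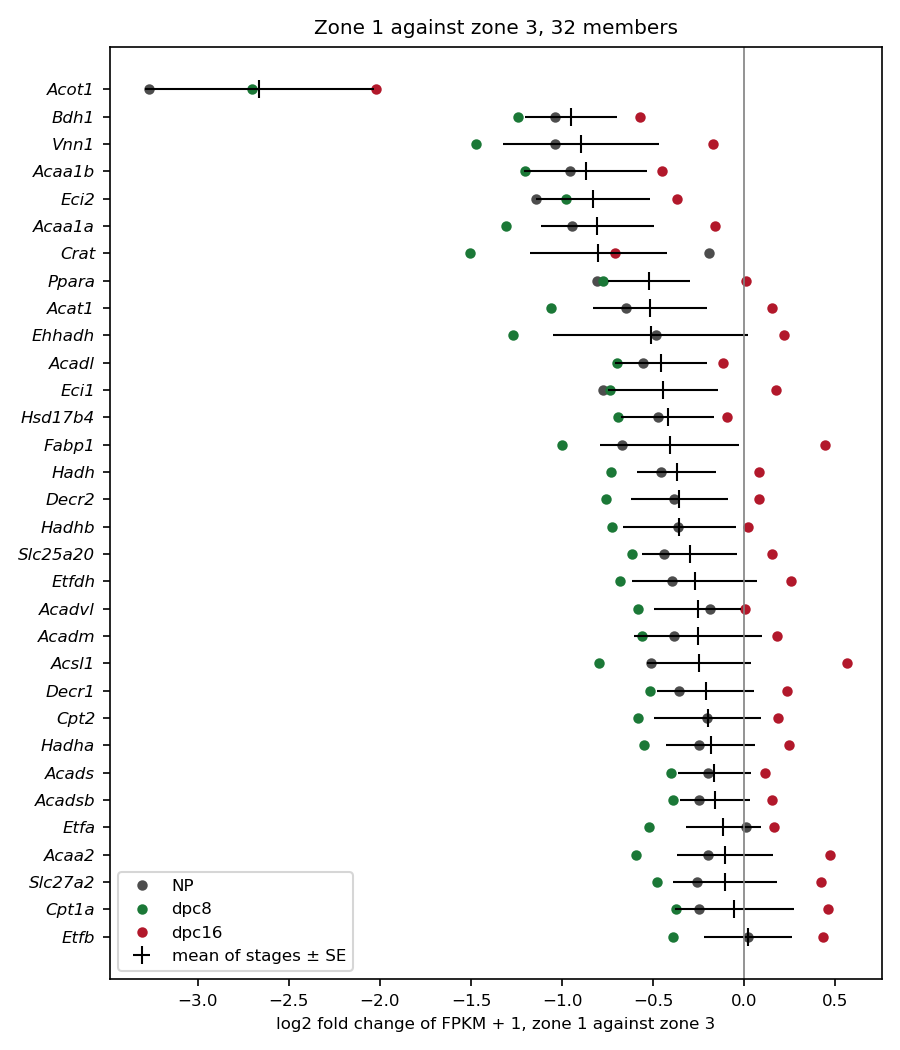
Log2 fold change of FPKM + 1 in zone 1 against zone 3 (horizontal axis) for the 32 members (rows, ordered by the mean over stages). Coloured points are the stages, and vertical ticks with bars are the mean over stages ± SE, which runs from -2.66 for Acot1 to 0.02 for Etfb. The dpc8 points all lie below 0 and 23 of the dpc16 points above 0.

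Etfb, the subunit beta of the electron transfer flavoprotein and the member furthest above 0, had 319.8, 384 and 500.3 FPKM in zone 1 and 445, 268 and 492 in zone 3 of NP mice, with 441, 349 and 356 in zone 2. In dpc8 mice it had 241, 324 and 457 in zone 1, 374, 285 and 557 in zone 2, and 420.0, 418 and 463 in zone 3. In dpc16 mice it had 711, 580.0 and 432 in zone 1, 689, 597 and 177 in zone 2, and 561, 529.8 and 243 in zone 3. The zones overlapped at every stage, and within each of the 3 dpc16 replicate numbers zone 1 was above zone 3.

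The stages were compared to ask how the module changes with pregnancy. At dpc16 against NP, averaged over the zones, Vnn1 and Crat rose and no member fell, 2 of 32, where 5.65% of all genes were called higher and 6.15% lower. Vnn1 rose by a log2 fold change of 1.56 ± 0.43 (SE, adjusted p = 0.0186) and Crat by 1.26 ± 0.38 (adjusted p = 0.0311). The fitted value was above 0 for 27 of 32 members, with a median of 0.40 beside -0.01 over all genes. The hepatocyte markers moved with the stage. They summed to 32544 to 96796 FPKM in NP and to 143459 to 223087 in the 7 dpc16 libraries not among the 6. Alb, the albumin gene, took 3.71 to 12.0% and 15.2 to 20.97% of all FPKM there. In the other 2 dpc16 libraries the markers summed to 46199 and 61949 FPKM. The connective tissue genes summed to 106 to 419 FPKM in NP and 90.0 to 232 at dpc16 without the 6 libraries. Their part in the members' levels was not tested. With the other 21 libraries, 21 members were called higher and none lower, where 8.54% of all genes were called higher, and the median was 0.73. These averages use 9 libraries a stage from an unstated number of mice, and with stage and replicate number as a random block 1 member, Vnn1, was called higher (adjusted p = 0.0376), against 3.35% of all genes.

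Vnn1 had 24.99, 14.2 and 13.8 FPKM in zone 1, 52.6, 18.6 and 64.1 in zone 2, and 77.8, 22.2 and 26.6 in zone 3 of NP mice. At dpc8 it had 13.4, 55.1 and 23.0 in zone 1, 34.3, 61.0 and 45.4 in zone 2, and 59.98, 116 and 57.4 in zone 3. At dpc16 it had 184, 109 and 41.8 in zone 1, 163, 113 and 15.8 in zone 2, and 160.4, 159 and 47.0 in zone 3. The dpc16 libraries were all above the NP libraries in zone 1 and overlapped them in zones 2 and 3, where the third dpc16 library was low. The rise was called under all 29 alternatives, from 1.35 to 2.21 on the log2 scale.

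Crat, which exchanges acetyl groups between carnitine and CoA, had 42.0, 26.9 and 15.99 FPKM in zone 1, 135, 43.8 and 55.2 in zone 2, and 47.4, 20.96 and 27.6 in zone 3 of NP mice. The dpc8 libraries had 30.2, 28.8 and 12.6 in zone 1, 51.7, 52.0 and 37.4 in zone 2, and 75.6, 109 and 33.3 in zone 3. The dpc16 libraries had 123, 122 and 24.3 in zone 1, 132, 164 and 37.0 in zone 2, and 204, 138 and 57.8 in zone 3. The dpc16 and NP libraries did not overlap in zone 3 and did in zones 1 and 2. The call was lost with the replicate block (adjusted p = 0.0557), in the fit to the compared groups alone (0.0613), and when any of 12 libraries was left out (0.0502 to 0.0753), namely replicates 2 and 3 of each NP zone and replicates 1 and 2 of each dpc16 zone.

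Ehhadh, the peroxisomal bifunctional enzyme, and Acot1 had fitted values as large but wider errors. Ehhadh had 105, 101 and 116 FPKM in zone 1, 224, 128 and 198 in zone 2, and 216, 116 and 135 in zone 3 of NP mice. In dpc8 mice it had 54.7, 156 and 102 in zone 1, 134, 212 and 193 in zone 2, and 149, 406 and 205 in zone 3. In dpc16 mice it had 712, 734 and 119 in zone 1, 884, 809 and 38.1 in zone 2, and 647, 764 and 79.7 in zone 3. In each zone the first and second dpc16 libraries were above every NP library, and the third was below the NP range in zones 2 and 3 and just above it in zone 1, at 119 FPKM. The log2 difference from NP was 1.27 ± 0.54 for Ehhadh (adjusted p = 0.139) and 1.48 ± 0.63 for Acot1 (adjusted p = 0.143) with 27 libraries. With 21 libraries it was 2.05 ± 0.35 (adjusted p = 0.000709) and 2.31 ± 0.64 (adjusted p = 0.0193). With the replicate block added to that limma fit it was 1.91 (adjusted p = 0.0051) and 2.04 (adjusted p = 0.0790), so Acot1 lost its call.

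**Figure D3:**
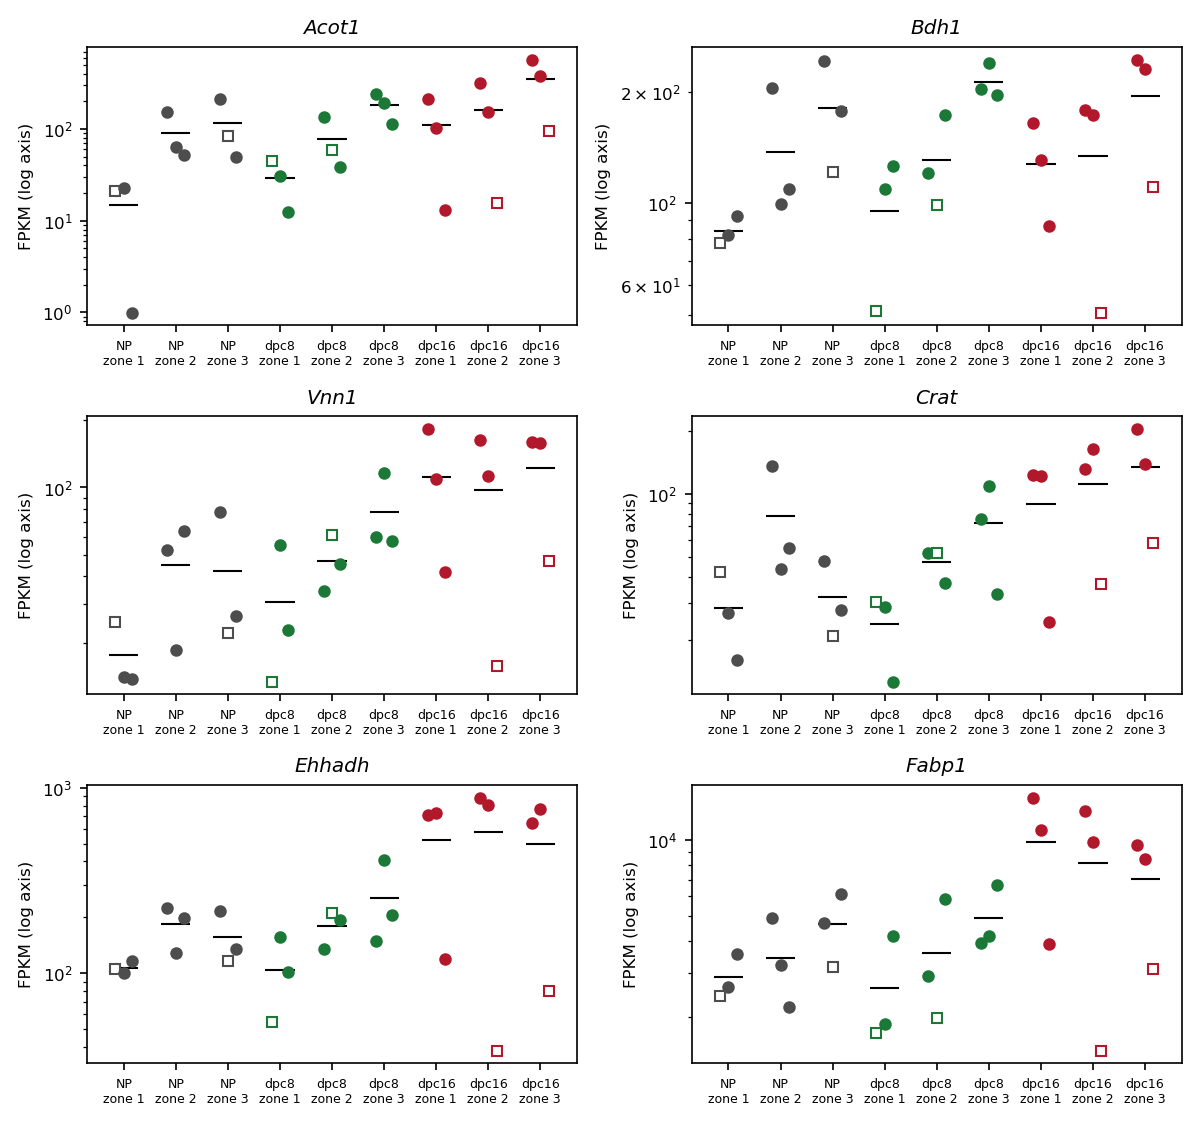
FPKM on a log axis of Acot1, Bdh1, Vnn1, Crat, Ehhadh and Fabp1 in each library of the 9 groups of stage and zone. Filled circles are libraries, open squares the 6 libraries with Y-linked signal, and lines the group means. In Ehhadh at dpc16, 6 libraries lie between 647 and 884 FPKM and the third library of each zone between 38.1 and 119.

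Fabp1 had 2414, 2638 and 3557 FPKM in zone 1, 4928, 3201 and 2191 in zone 2, and 4729, 3163 and 6134 in zone 3 of NP mice. At dpc8 it had 1732, 1882 and 4193 in zone 1, 2910.1, 1983 and 5874 in zone 2, and 3922, 4199 and 6642 in zone 3. At dpc16 it had 14753, 11005 and 3874 in zone 1, 13047, 9852 and 1473 in zone 2, and 9608, 8459.6 and 3092 in zone 3. Its dpc16 libraries of zone 1 were all above the NP libraries of that zone, and those of zones 2 and 3 overlapped them. The log2 difference between dpc16 and NP was 0.97 ± 0.38 (adjusted p = 0.113), and 1.34 ± 0.29 with 21 libraries (adjusted p = 0.00433).

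The other genes of uptake and activation, Acsl1 and Slc27a2, had log2 differences of 0.47 and -0.04. Along the carnitine shuttle the values were 0.39 for Cpt1a, which makes the acylcarnitine, 0.63 for Slc25a20 and 0.31 for Cpt2, which restores the acyl-CoA inside the mitochondrion. The acyl-CoA dehydrogenases, which take the first step of each round, ranged from -0.29 (Acadsb, for branched short chains) to 0.45 (Acadl, for long chains), with 0.08 for Acadm, 0.22 for Acads and 0.44 for Acadvl. None of these passed the threshold in the fit to 27 libraries with no weights or covariate. Weighting the 27 libraries by their fit called Acsl1, Cpt1a, Slc25a20, Cpt2, Acadl and Acadvl higher, where 11.5% of all genes were. The connective tissue covariate called Acadsb lower.

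Among the later mitochondrial steps the differences were 0.78 for Hadhb and 0.51 for Hadha, the subunits of the trifunctional protein, 0.49 for Decr1 and 0.41 for Eci1, which handle unsaturated chains, 0.30 for Acaa2 and 0.13 for Hadh. Etfdh, Etfb and Etfa had 0.50, 0.25 and -0.06. In the peroxisome Acaa1a had 0.82, Eci2 0.50, Hsd17b4 0.40, Decr2 -0.12 and Acaa1b -0.32. Acat1, the mitochondrial acetoacetyl-CoA thiolase, had 0.31, Bdh1 0.15 and Ppara 0.17. None was called in the fit to 27 libraries with no weights or covariate. Weighting the 27 libraries by their fit called all of them higher but Hadh, Etfa, Decr2, Acaa1b, Bdh1 and Ppara. The connective tissue covariate called Hadhb higher.

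**Figure D4:**
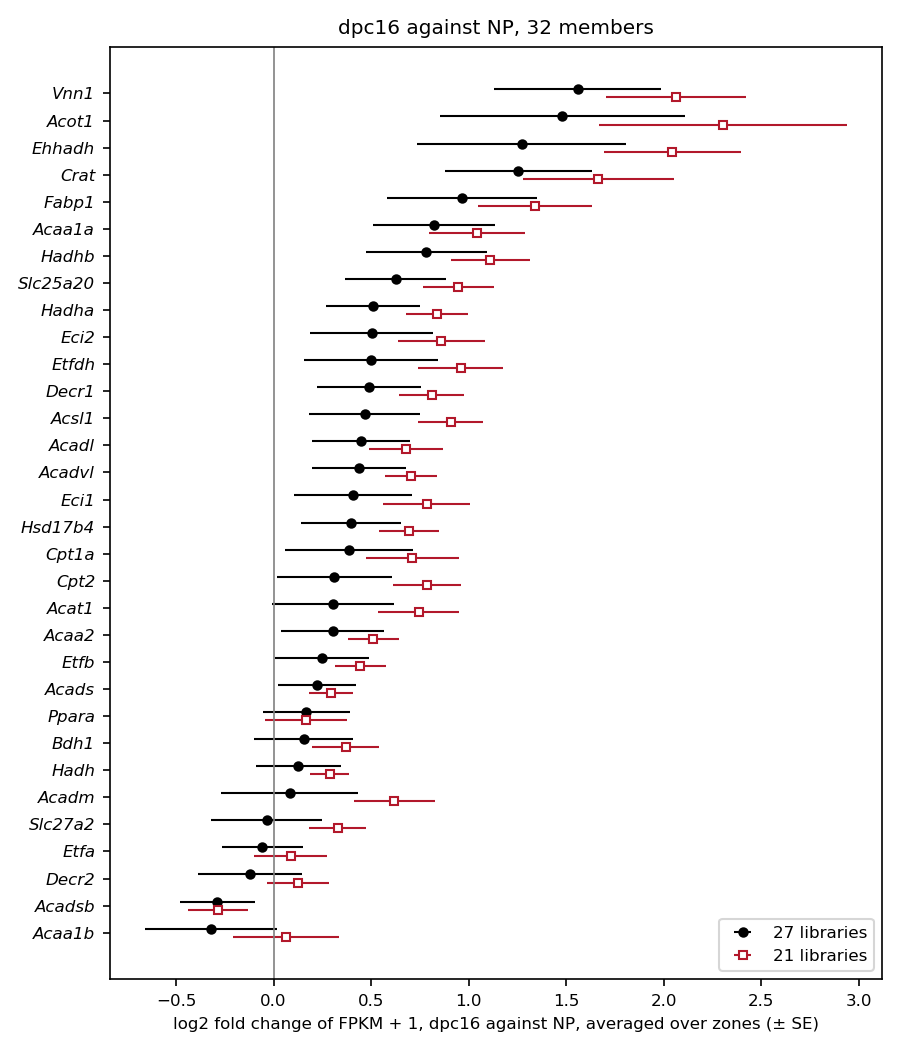
Log2 fold change of FPKM + 1 at dpc16 against NP, averaged over the zones, with its SE (horizontal axis), for the 32 members (rows). Black circles are the fit to 27 libraries and open red squares that to the 21 without Y-linked signal. The value for Ehhadh moves from 1.27 to 2.05 and that for Acadsb stays at -0.29 and -0.28.

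With 21 libraries the members called higher at dpc16 than in NP came from every step. They were Fabp1, Acsl1, Acot1 and Vnn1 of uptake and activation, Slc25a20, Cpt2 and Crat of the carnitine shuttle, Acadl and Acadvl among the dehydrogenases, and Hadha, Hadhb, Acaa2, Eci1 and Decr1 of the later steps. Etfb and Etfdh, the peroxisomal Acaa1a, Ehhadh, Hsd17b4 and Eci2, and Acat1 complete the 21. The 11 others were Ppara, Slc27a2, Cpt1a, Acads, Acadm, Acadsb, Hadh, Etfa, Acaa1b, Decr2 and Bdh1. With the replicate block added to that fit 14 members were called higher, against 5.71% of all genes. Acot1, Acadl, Acaa2, Eci1, Etfb, Eci2 and Acat1 lost their calls. Weighting libraries by their fit instead (array weights, 27 libraries) gave 22 higher, against 11.5% of all genes.

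Acaa1b, Acadsb and Decr2 had the lowest differences from NP, and none of them was called with 27 libraries and no covariate. Acaa1b had 198, 165 and 139 FPKM in zone 1, 459, 231 and 204 in zone 2, and 534, 220.3 and 286 in zone 3 of NP mice. The dpc8 libraries had 112, 339 and 169 in zone 1, 261, 277 and 284 in zone 2, and 299, 651 and 409 in zone 3. The dpc16 libraries had 285, 234 and 93.4 in zone 1, 315, 272 and 51.4 in zone 2, and 355, 343 and 131 in zone 3. The stages overlapped in every zone, and without the 6 libraries the difference turned from -0.32 to 0.06.

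Acadsb had 75.6, 138 and 154 FPKM in zone 1, 129, 120.0 and 156 in zone 2, and 132, 109 and 187 in zone 3 of NP mice. In dpc8 mice it had 98.6, 112 and 129.7 in zone 1, 137, 83.3 and 172 in zone 2, and 185, 143 and 123 in zone 3. In dpc16 mice it had 125, 93.3 and 130.3 in zone 1, 168, 88.9 and 68.2 in zone 2, and 111, 131 and 75.9 in zone 3. The stages overlapped in every zone, and the fitted difference from NP was -0.29 ± 0.19 (adjusted p = 0.404). With the connective tissue level as a covariate it was called lower (-0.39, adjusted p = 0.0384), and with the replicate block as well it was not (adjusted p = 0.0902).

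Decr2 had 92.6, 104 and 155 FPKM in zone 1, 175, 111 and 115 in zone 2, and 183, 102 and 180.3 in zone 3 of NP mice. At dpc8 it had 74.1, 142 and 124 in zone 1, 137, 129.9 and 162 in zone 2, and 173, 214 and 172 in zone 3. At dpc16 it had 182, 152 and 86.5 in zone 1, 171, 161 and 39.2 in zone 2, and 168, 186 and 64.9 in zone 3. Its replicate 3 at dpc16 was below every NP library in each zone, and the first and second lay within the NP range in zone 2. In zones 1 and 3 at least 1 of them was above it, at 182 in zone 1 and 186 in zone 3.

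Within zones no member was called between dpc16 and NP, where 1.37% of all genes were called in zone 1, 2.66% in zone 2 and 1.32% in zone 3. At an unadjusted p under 0.05 there were 9 members in zone 1, 0 in zone 2 and 2 in zone 3, beside 11, 16.6 and 11.5% of all genes. The median over the members was 0.83 in zone 1, 0.05 in zone 2 and 0.28 in zone 3. All 3 dpc16 libraries were above all 3 NP libraries for 12 members in zone 1 (Ppara, Fabp1, Acsl1, Vnn1, Cpt1a, Slc25a20, Acadvl, Hadh, Hadha, Decr1, Ehhadh and Eci2) against 9.42% of all genes. This held for 0 in zone 2 against 7.77%, and for 1 in zone 3, Crat, against 7.84%. In zones 2 and 3 the third dpc16 library, in NP zone 1 the first and in NP zone 3 the second are among the 6 with Y-linked signal. Without the 6, Acsl1 and Vnn1 were called higher in zone 1, Fabp1, Ehhadh, Hadha and Hadhb in zone 2, and Cpt2 in zone 3. In that fit 1.81, 2.56 and 2.02% of all genes were called higher. With the replicate block added to it, members were called in zone 1 only.

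Whether the dpc16 change differs between zones was tested as a contrast of contrasts. No member was called, where 0.0540% of all genes were, and 0 members had an unadjusted p under 0.05, beside 3.16% of all genes. The fitted difference, the change in zone 1 less that in zone 3, was above 0 for 31 of 32 members, with a median of 0.58, and 0.16 with 21 libraries, where dpc16 zone 1 keeps its low replicate 3 and zone 3 does not. For the dpc8 change the same contrast called 0 members and 0 genes in all (limma), with 0 members at an unadjusted p under 0.05 beside 2.36% of all genes, with a median of -0.28 over the members and 0.02 with 21 libraries.

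Between dpc8 and NP no member was called in any zone or in the average, where 0.108% of all genes were called in the average and 0.0309, 0.00772 and 0.0154% in zones 1, 2 and 3. No member had an unadjusted p under 0.05 in any of these comparisons, beside 6.11% of all genes in the average and 3.13, 5.06 and 2.74% in the zones. The fitted values of the average ran from -0.56 (Acat1) to 0.66 (Acot1), with a median of 0.11. Acot1 and Vnn1 (0.59), whose values are given above, and Acaa1a (0.36) had the highest of them. These values were not stable: Acot1 was at 0.27 without replicate 3 of zone 1 in NP, below Vnn1 (0.55) and Acaa1a (0.42) in that fit, Acaa1a was at 0.20 without replicate 2 of zone 3 in NP, and Vnn1 was at 0.91 with array weights. Acaa1a had 33.9, 25.2 and 43.8 FPKM in zone 1, 74.8, 42.5 and 34.7 in zone 2, and 108, 33.3 and 77.5 in zone 3 of NP mice. The dpc8 libraries had 23.5, 59.9 and 41.4 in zone 1, 82.2, 52.5 and 48.5 in zone 2, and 112, 104 and 80.4 in zone 3. The dpc16 libraries had 105, 128 and 43.0, 103, 139 and 31.4, and 124, 140.4 and 46.7 in zones 1, 2 and 3. In each zone the first and second dpc16 libraries were above all NP and dpc8 libraries, and the third lay within their range in zones 1 and 3 and below it in zone 2.

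Acat1, Acadm and Acsl1 had the lowest of the dpc8 differences, -0.56, -0.27 and -0.20. That of Acsl1 was -0.13 without replicate 1 of zone 3 in NP and -0.10 with array weights. Acat1 had 86.7, 123 and 99.7 FPKM in zone 1, 153, 154 and 124 in zone 2, and 163, 165 and 155 in zone 3 of NP mice. In dpc8 mice it had 39.9, 65.1 and 88.3 in zone 1, 76.0, 71.8 and 138 in zone 2, and 114, 142 and 133 in zone 3. In dpc16 mice it had 284, 221 and 91.3 in zone 1, 299, 249 and 48.8 in zone 2, and 237, 249.95 and 70.2 in zone 3. Its dpc8 libraries of zone 3 were all below those of NP, which held for 5.07% of all genes in that zone, and the first and second dpc16 libraries were above all others of their zone.

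Acadm, the medium chain acyl-CoA dehydrogenase, had 309.7, 274 and 292 FPKM in zone 1, 468, 357 and 388 in zone 2, and 473, 323 and 362 in zone 3 of NP mice. At dpc8 it had 189, 279.7 and 286 in zone 1, 261, 268 and 326 in zone 2, and 311, 418 and 377 in zone 3. At dpc16 it had 627, 581 and 210.1 in zone 1, 882, 519 and 80.2 in zone 2, and 630.1, 560.2 and 149 in zone 3. In zone 2 its dpc8 libraries were all below those of NP, as were those of Acsl1 and Cpt2, against 5.76% of all genes. The dpc8 libraries were all above those of NP for Eci2 and Slc25a20 in zone 1 (3.6% of all genes) and for Hadhb in zone 3 (4.74%).

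Acsl1 had 393, 463 and 283 FPKM in zone 1, 709.5, 499 and 651 in zone 2, and 710.3, 491 and 432 in zone 3 of NP mice. The dpc8 libraries had 258, 407 and 314 in zone 1, 464, 404 and 466 in zone 2, and 509.5, 681 and 499.8 in zone 3. The dpc16 libraries had 1172, 934 and 654 in zone 1, 1258, 883 and 189 in zone 2, and 931, 804 and 296 in zone 3. All dpc16 libraries of zone 1 were above all NP and dpc8 libraries of that zone, while zones 2 and 3 overlapped through replicate 3.

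Between dpc16 and dpc8 no member was called in the average, where 11.1% of all genes were, and 8 of 32 members had an unadjusted p under 0.05, near the 23.9% of all genes. The highest fitted values were 1.16 ± 0.38 for Crat (adjusted p = 0.0501), 1.12 ± 0.54 for Ehhadh and 1.02 ± 0.38 for Fabp1, and the median over the members was 0.30 beside -0.01 over all genes. With quantile normalization the value for Fabp1 was 0.37 (adjusted p = 0.443), and its difference from NP was 0.51. The lowest were -0.51 for Acaa1b, -0.27 for Acadsb and -0.24 for Decr2. Without replicate 3 of zone 2 at dpc16 they were -0.23, -0.18 and -0.010, and without the 6 libraries -0.19 for Acaa1b and 0.035 for Decr2. With 21 libraries 17 members were called higher and 0 lower, against 9.47% of all genes higher, and with Ehhadh at 1.88. Adding the replicate block to that fit left only Acsl1, Crat, Fabp1, Acadm, Acadvl, Hadha, Ehhadh, Hsd17b4 and Acat1 called. Its share of all genes is given in the closing section. With array weights on all 27 libraries 21 were called higher, against 13.7% of all genes. The hepatocyte markers moved with this contrast too. They summed to 33477 to 66068 FPKM at dpc8, with Alb at 4.20 to 10.7% of all FPKM. Both ranges lay below those of the 7 dpc16 libraries not among the 6, given above. The connective tissue genes summed to 84.7 to 596 FPKM at dpc8 without the 6 libraries, and the part of these markers in the difference was not tested. Both contrasts of dpc16 use the same dpc16 libraries. Within zones no member was called, where 2.01, 1.51 and 1.37% of all genes were in zones 1, 2 and 3, and 8, 0 and 0 members had an unadjusted p under 0.05, beside 13.4, 12.1 and 12.4% of all genes. The medians were 0.77 in zone 1, 0.15 in zone 2 and -0.05 in zone 3. All 3 dpc16 libraries of zone 1 were above all 3 dpc8 libraries for 7 members, against 9.80% of all genes. These were Ppara, Acsl1, Acadvl, Hadh, Hadha, Acaa2 and Acat1. In zones 2 and 3 this held for 0 members, beside 886 and 1434 of 12952 genes.

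A list of 66 further genes of fatty acid handling, peroxisomes and PPARA signalling was counted beside the module. Of the 66, 6 rose and 6 fell at dpc16 against NP in the average, beside 5.65 and 6.15% of all genes. Those that rose were Fgf21, a fasting hormone of the liver (2.59 ± 0.62), Cd36, a fatty acid transporter (2.25 ± 0.37), the thioesterases Acot2 (1.61 ± 0.35) and Acot4 (1.22 ± 0.29), and Plin2, a lipid droplet coat protein (1.60 ± 0.25). Angptl4, an inhibitor of lipoprotein lipase, rose by 1.16 ± 0.35, a call that held in 14 of 29 alternatives (adjusted p up to 0.0815). Those that fell most were Nudt7, a peroxisomal CoA diphosphatase (-2.45 ± 0.29), Mlxipl, the carbohydrate response factor (-1.41 ± 0.27), the coactivator Ppargc1b (-1.08 ± 0.29), Acsl3 (-1.08 ± 0.27) and the coactivator Ppargc1a (-0.88 ± 0.28), and Pparg fell by -0.79 ± 0.21 on the log2 scale. The call for Ppargc1a held in 12 of 29 alternatives (adjusted p up to 0.136). The median over the 66 was 0.12. Like the members, Fgf21 was low in the third dpc16 library: it had 11.5, 14.9 and 1.03 FPKM in zone 1, 24.0, 26.9 and 0.160 in zone 2, and 32.1, 35.9 and 0.351 in zone 3. Nudt7 was low in all dpc16 libraries, with 13.7 to 33.7 FPKM against 38.5 to 330.1 in the NP libraries.

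Between dpc16 and dpc8, 4 of the 66 were called higher (Fgf21, 2.77, Cd36, 2.49, Plin2, 1.13, and Acsl4, 0.74) and 3 lower (Nudt7, -1.95, Mlxipl, -1.59, and Ppargc1b, -1.01), 7 of 66 where 11.1% of all genes were called. The call for Acsl4 held in 15 of 29 alternatives and that for Ppargc1b in 20. Between dpc8 and NP 0 were called by limma, and 3 of 66 had an unadjusted p under 0.05, where 6.11% of all genes did. Between zones 1 and 3, Ppargc1a (0.97 ± 0.28) and Nudt19, a peroxisomal CoA diphosphatase (0.74 ± 0.20), were higher in zone 1, and Pparg (-1.84 ± 0.21) and Slc16a7, a monocarboxylate transporter (-1.41 ± 0.25), were lower, 2 of 66 in each direction beside 2.70 and 2.89% of all genes. The calls for Ppargc1a and Nudt19 held in 12 and 19 of 30 alternatives, with adjusted p up to 0.129 and 0.0819. Pparg was lower in zone 1 at each stage, by -1.59 in NP, -2.32 at dpc8 and -1.61 at dpc16.

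De novo lipogenesis and the tricarboxylic acid cycle were counted as the neighbouring pathways. At dpc16 against NP, 6 of 10 lipogenic genes fell and Pnpla3 rose (1.81), beside 6.15% of all genes lower and 5.65% higher. Those that fell were Srebf1 (-2.33), Scd1 (-1.85), Elovl6 (-1.79), Fasn (-1.53), Acly (-1.32) and Me1 (-0.72). The call for Me1 held in 22 of 29 alternatives, and the list median was -1.30 beside the members' 0.40. Of 15 cycle genes, 3 fell and none rose, against the same shares of all genes, with a median of -0.37. Among the 3 were Sdha (-0.53, called in 14 of 29 alternatives) and Idh3b (-0.48). Between zones 1 and 3 all 10 lipogenic genes were fitted higher in zone 1, with a median of 0.83 beside the members' -0.36. Of them 2 were called (Acly, 2.06, and Pnpla3, 2.01), where 2.70% of all genes were called higher. Of the 15 cycle genes 1 was called, Cs, the citrate synthase (-0.77), where 2.89% of all genes were called lower. The difference between lists was not tested.

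**Figure D5:**
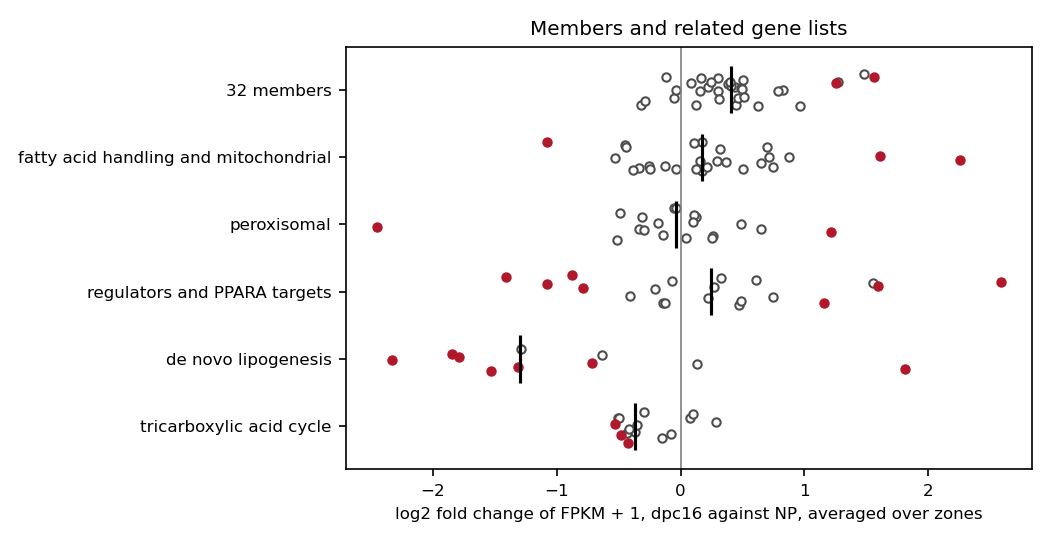
Log2 fold change of FPKM + 1 at dpc16 against NP, averaged over the zones (horizontal axis), for the 32 members and 5 other lists (rows). Filled red points passed an adjusted p of 0.05, open points did not, and vertical lines are list medians, 0.40 for the members, -1.30 for de novo lipogenesis and -0.37 for the tricarboxylic acid cycle.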

How the data were processed

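Per the labels and the study's methods, ribosomal RNA was depleted from 50 ng of total RNA, reads were trimmed with cutadapt and aligned to mm10 with HISAT2 2.1.0, uniquely mapped reads were kept, and Cuffdiff of Cufflinks 2.2.1 computed FPKM. The deposited FPKM values were used as the authors gave them, in 27 columns for 27 libraries. Stage, zone and replicate number came from the sample titles.

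FPKM were tested as log2(FPKM + 1) with limma 3.58.1 (R 4.3.3), with an intensity trend, robust settings and a mean for each of the 9 groups, over the 12952 of 21823 genes that reached 1 FPKM in 3 or more libraries. Tests were two-sided, with p-values adjusted by Benjamini-Hochberg over all genes tested within a comparison and a threshold of 0.05. Limma was used because Cuffdiff needs reads. Fold changes of low genes are understated by the added 1. The script was tested on simulated data with independent libraries, which does not test the effect of libraries that deviate together.

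Libraries of 1 stage and number were checked for shared deviations from the group means: all 9 correlations between zones exceeded 0.1 at dpc16 (0.26 to 0.86), 4 of 9 did in NP and 5 of 9 at dpc8. The number was therefore taken to pair libraries at dpc16, and the labels do not say what it stands for. Depth was estimated from whole-read steps of low FPKM, on which 89.66 to 96.55% of low values lay within 0.05 steps. It was not used in any test.

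The members, lists and tests were chosen with earlier results of these data known. The rule was to give all libraries for members past the threshold and for up to 3 members a direction in each averaged comparison, and to name up to 5 further pathway genes a direction. Angptl4 and Pparg in the dpc16 contrast and the neighbouring lists were named outside it, after their values were seen. Some genes of the lists are not reported here. Gene starts came from GENCODE vM21 on the same build, not the release the authors used, and identity from alignment of the longest protein-coding transcripts with Biopython 1.88.

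Alternatives were a pseudocount of 0.1, no filter, quantile and median-ratio scaling, array weights, the compared groups alone, a connective tissue covariate, leaving out the 6 libraries with over 5 FPKM of Y-linked genes, a replicate block, and leaving out each library in turn. The block together with the covariate or with the 21 libraries was chosen after seeing the data.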

Additional observations from a re-analysis of the deposited data

Results flagged for a closer look

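The Y-linked genes Ddx3y, Eif2s3y, Kdm5d and Uty enter no comparison and drew notice because all 27 libraries are labelled female: their summed level reached 23.2 FPKM in dpc16 zone 2 replicate 3, against a median of 0 in the 21 libraries at or under 2.97. The source of this signal was not tested. Single values within the groups of 3 libraries were not tested as outlying, and no member passed the test of a difference between zones in its change with pregnancy.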

How the results depend on the processing

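For dpc16 against NP in the average (2 called) the count was 22 with array weights (11.5% of all genes higher). It was 21 without the 6 libraries with Y-linked signal (8.54%) and 14 with the replicate block added to that fit (5.71%). With the connective tissue covariate it was 5 (4 higher against 9.98% of all genes, and Acadsb lower). The replicate block with all libraries gave 1 (3.35%), and the compared groups alone gave 1. For the compared groups alone, the pseudocount of 0.1 and fits that left out 1 library, the share of all genes is not given here. When a library was left out the count was 1 to 14. It was 14, 6 and 5 on leaving out replicate 3 of zones 2, 3 and 1 at dpc16. Within zones 1, 2 and 3 (0 called) it was 8, 6 and 2 with array weights (3.21, 4.44 and 3.09% of all genes higher) and 2, 4 and 1 without the 6 libraries (1.81, 2.56 and 2.02%), and 2 in zone 1 with the block as well (1.87%). For dpc16 against dpc8 in the average (0 called) it was 21 with array weights (13.7% of all genes higher), 17 without the 6 libraries (9.47%), 9 with the block as well (6.23%), 4 with the covariate (3 higher against 9.37%, and Acadsb lower), 2 with covariate and block (5.84%), 1 with a pseudocount of 0.1, and 0 to 9 when a library was left out. Within its zones 1 and 2 it was 7 and 2 with array weights (4.12 and 4.15%) and 1 and 1 without the 6 libraries (2.35 and 2.09%), and 2 in zone 1 with the block as well (2.52%).

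For zone 1 against zone 3 in the average (2 called) the count was 7 with array weights (5.37% of all genes lower), 10 with the fixed replicate block (4.08%), 7 without the 6 libraries (3.93%), 9 with the block as well (4.91%), and 1 to 3 when a library was left out. Within stages (0 called) the fixed replicate block gave 2 in NP, 8 at dpc8 and 1 at dpc16. The number was taken as a pairing only at dpc16. Array weights gave 2 at dpc8 (2.83%), and covariate and block gave 2 in NP (1.67%). Stage comparisons have no fixed block, since a replicate number lies within a stage. The cause of these moves was not tested. The other 169 of 202 counts equalled the count of the first fit or stayed within 1.5 times of it. Where that count was 0 this only means 0 again, so it is no measure of stability.

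Over all 32 members, the averaged value turned sign in at least 1 setting for 5 at dpc16 against NP, 8 at dpc16 against dpc8, 11 at dpc8 against NP and 5 between zones 1 and 3. At dpc16 against NP Slc27a2 ranged from -0.34 to 0.36, Etfa from -0.16 to 0.088 and Acadm from -0.15 to 0.62, and between zones Cpt1a ranged from -0.38 to 0.10, Slc27a2 from -0.29 to 0.043, Acaa2 from -0.24 to 0.062 and Etfa from -0.19 to just above 0. The other turns among values given in the text were these. Acaa1b at dpc16 against NP turned to 0.092 with array weights and 0.064 without the 6 libraries. Decr2 in that contrast turned to 0.20 with array weights, 0.13 without the 6 libraries, 0.081 with the block as well, and ranged from -0.24 to 0.11 when a library was left out, above 0 on leaving out replicate 3 of zone 2 or 3 at dpc16. Decr2 at dpc16 against dpc8 turned to 0.022 with array weights and 0.035 without the 6 libraries. Etfb between zones turned to -0.025 with array weights, -0.072 without the 6 libraries and -0.052 with the block as well, and ranged from -0.11 to 0.10 when a library was left out, and it was below 0 on leaving out replicate 3 of zone 1 or 2 of zone 3 in NP, 3 of zone 1 at dpc8, and 1 of zone 1 or 3 of zone 3 at dpc16. With 3 libraries a group, 2 in 6 groups without the 6 libraries, differences within a zone were less precise than the averages.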
